A study of Mus musculus with 6 samples.

Results

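The genes described are the Hox genes of the 4 mammalian clusters, HoxA, HoxB, HoxC and HoxD, in lung buds of mouse embryos at E11.5. They were taken as every gene whose platform symbol is Hox followed by a cluster letter and a paralogue number, read from a probe set (called a probe here) annotated to 1 gene. This gave 37 genes among the 19938 genes measured, each with 1 probe of its own. Hox genes without such a probe were not analysed here.

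RNA came from dissected lung buds in 2 groups of 3 arrays. The DKO group carried the Shhcre allele with floxed alleles of Hdac1 and of Hdac2 (Shhcre:Hdac1fl/fl; Hdac2 fl/fl), and the control group carried Shhcre alone, so that both groups had the Cre allele. The strain was given as C57BL/6 and 129X1,129S1 in both groups. Shhcre expresses Cre from the Sonic hedgehog locus, which is active in the epithelium of the bud, while mesenchyme, vessels, mesothelium and blood were measured in the same RNA. In such bulk samples a change in the number of cells of a type and a change in RNA per cell cannot be told apart. The titles number biological replicates, but they do not give the number of embryos behind each sample, and the p-values therefore cover only the scatter among these 6 arrays.

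Hox genes encode homeodomain transcription factors that give cells their position along the body axis. Within a cluster they lie in the order in which they are used, with low paralogue numbers (anterior) active early and in the head and neck, and high numbers (posterior) active later and toward the tail and the tips of the limbs. Polycomb complexes hold the clusters silent outside their domains, trithorax proteins keep them active inside, and retinoic acid opens them from the anterior end. In the lung, genes of the anterior and middle parts of HoxA and HoxB are active mainly in the mesenchyme, and mice without Hoxa5 have defects of the trachea and lung.

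The arrays correlated at r of 0.995 to 0.999 over all genes. DKO 2 scattered most around its group mean, with a standard deviation (SD) of 0.105 on the log2 scale over all genes, against 0.0867 in DKO 1, 0.0705 in DKO 3 and 0.0596 to 0.0645 in the control arrays. Its dim probes were high: among the 30% of genes with the lowest mean value, DKO 2 held the highest of the 3 DKO values for 68.2%. Of the targeted genes, Hdac1 had log2 values of 11.20, 11.23 and 11.23 in DKO 1 to 3, against 11.48, 11.49 and 11.52 in control 1 to 3, a log2 difference of -0.28 (standard error (SE) 0.05, limma adjusted p = 0.0193). Hdac2 was 11.74 ± 0.03 in DKO and 11.78 ± 0.08 in control (SD, n = 3 each), a difference of -0.04 (SE 0.06, limma adjusted p = 0.845), and whether either probe lies in a deleted exon was not determined here.

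Among the Hox genes, Hoxb1, Hoxb5, Hoxa4 and Hoxb3 rose in DKO buds, by 1.24-fold to 1.43-fold, and 0 fell. All 4 lie in the anterior or middle parts of HoxA and HoxB. The threshold was an adjusted p under 0.05 from limma with Benjamini-Hochberg adjustment over the 19938 genes, and differences are log2 values of DKO minus control. The 4 of 37 genes make 10.8%, whereas 2.41% of all genes passed in either direction, 1.03% with a rise and 1.38% with a fall. At an unadjusted p under 0.05, 9 of 37 Hox genes were higher and 0 lower in DKO, whereas over all genes 12.8% were under that value, 6% higher and 6.83% lower. The median difference of the 37 genes was 0.03, beside 0.000286 over all genes, since most members lay close to 0.

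**Figure D1:**
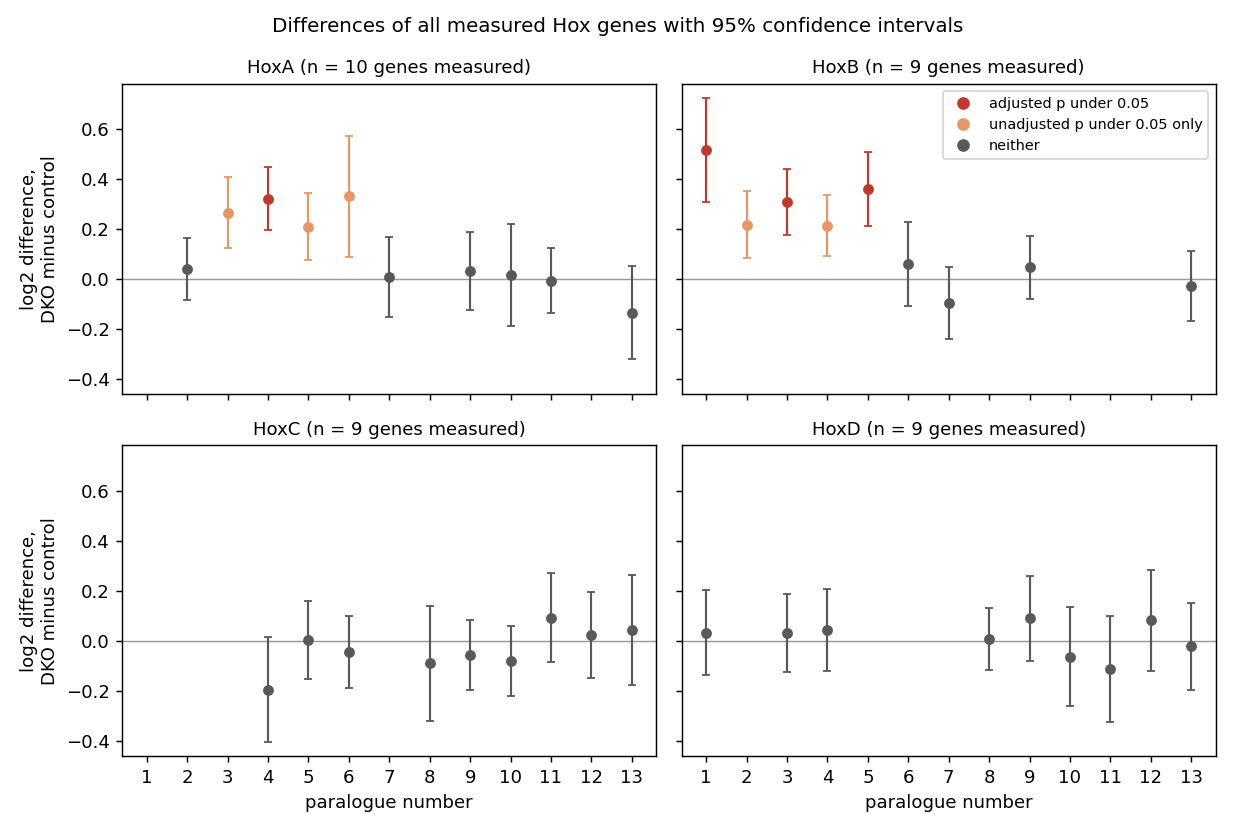
Log2 difference (DKO minus control, vertical axis) of each of the 37 measured Hox genes by paralogue number (horizontal axis), 1 panel per cluster, with 95% confidence intervals from limma (n = 3 arrays per group). The 9 genes at an unadjusted p under 0.05 are Hoxa3 to Hoxa6 and Hoxb1 to Hoxb5, all above 0, and every HoxC and HoxD gene shown has an interval that includes 0.

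The DKO and control values did not overlap for 10 of the 37 genes, against 18.8% of all genes. Of the 10, 9 were higher in DKO (8.36% of all genes) and 1, Hoxb7, was lower (10.4% of all genes). The 9 higher genes are the same 9 with an unadjusted p under 0.05, namely Hoxa3, Hoxa4, Hoxa5 and Hoxa6 in HoxA and Hoxb1, Hoxb2, Hoxb3, Hoxb4 and Hoxb5 in HoxB. In the RefSeq gene order those of each cluster follow one another with no other Hox gene between them. This run was noticed after the values were seen.

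Hoxb1, which gives the fourth segment of the hindbrain its identity, showed the largest difference of the family. Its log2 values were 8.87, 9.14 and 9.27 in DKO 1 to 3, against 8.60, 8.54 and 8.58 in control 1 to 3. The lowest DKO value lay above the highest control value, and the DKO arrays were spread much more widely (SD 0.20) than the controls (SD 0.03). The difference was 0.52 (SE 0.09, 95% confidence interval 0.31 to 0.73, limma adjusted p = 0.0229), which is 1.43-fold. In mouse, Hoxb1 protein maintains its own gene together with Pbx proteins through sites just upstream of the gene.

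Promoter sequences from RefSeq (GRCm38.p6) were at hand for 22 Hox genes. Those of Hoxb1, Hoxb4 and Hoxa5 are shown because each gene belongs to the run of higher values and they come from both clusters. No promoter sequence was at hand for Hoxa4, Hoxb2, Hoxb3 and Hoxb5. Of the genes shown, only Hoxb1 passed the threshold. Each is the 250 bases before the annotated start site, 5′ to 3′ on the strand of the gene, at chr11:96365508-96365757 (plus strand) for Hoxb1, chr11:96318017-96318266 (plus strand) for Hoxb4 and chr6:52204588-52204837 (minus strand) for Hoxa5. Capitals mark matches on either strand to 3 motifs, TGATNNAT for a Pbx and Hox protein pair, TGACAG for Meis proteins and AGGTCA for the retinoic acid receptor half-site. The motifs share no base in these stretches.
Hoxb1: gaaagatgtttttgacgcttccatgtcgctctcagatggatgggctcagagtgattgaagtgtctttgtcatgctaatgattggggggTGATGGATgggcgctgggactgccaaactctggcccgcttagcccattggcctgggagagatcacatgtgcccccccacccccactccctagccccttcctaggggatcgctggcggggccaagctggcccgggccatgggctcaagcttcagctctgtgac
Hoxb4: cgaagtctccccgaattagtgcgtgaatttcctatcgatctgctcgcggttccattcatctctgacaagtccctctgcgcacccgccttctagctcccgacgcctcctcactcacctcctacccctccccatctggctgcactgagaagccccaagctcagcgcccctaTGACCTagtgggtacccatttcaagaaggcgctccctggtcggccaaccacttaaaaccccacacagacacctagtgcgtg
Hoxa5: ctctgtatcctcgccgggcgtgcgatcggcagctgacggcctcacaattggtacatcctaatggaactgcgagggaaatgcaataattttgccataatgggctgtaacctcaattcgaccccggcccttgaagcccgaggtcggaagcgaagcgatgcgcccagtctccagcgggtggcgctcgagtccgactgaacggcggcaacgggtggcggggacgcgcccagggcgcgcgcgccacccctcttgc

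The Hoxb1 stretch holds 1 match to the Pbx and Hox motif, 162 to 155 bases before the start site on the strand of the gene. That motif occurs in 7.68% of all 32851 promoter stretches of the same length and in 4 of the 24 stretches of Hox genes, those of Hoxa2, Hoxb1, Hoxb8 and Hoxd11. The Hoxb4 stretch holds 1 match to the retinoic acid receptor half-site on the opposite strand, 81 to 76 bases before the start site. This half-site occurs in 14% of all stretches and in 6 of the 24 of Hox genes, of which Hoxc4, Hoxd3, Hoxd4, Hoxd8 and Hoxd10 were measured with no difference at an unadjusted p under 0.05. The Meis motif, found in 15.9% of all stretches, occurs in those of Hoxa2 and Hoxa3. The Hoxa5 stretch holds none of the 3, and it is rich in CG dinucleotides, with 28, whereas that of Hoxb4 has 14, that of Hoxb1 has 7 and the median stretch has 6. A match is a description of the letters and was not set against binding data.

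Hoxb5, a factor of the branching lung mesenchyme, had log2 values of 10.33, 10.49 and 10.26 in DKO 1 to 3, against 10.03, 9.97 and 9.999 in control 1 to 3. All DKO values were above all control values, with DKO 2 the highest. The difference was 0.36 (SE 0.07, interval 0.21 to 0.51, limma adjusted p = 0.0251), which is 1.28-fold.

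Hoxa4, which patterns neck vertebrae, had 10.67, 10.80 and 10.80 in DKO 1 to 3, against 10.46, 10.45 and 10.40 in control 1 to 3. The groups were separate by more than the spread within either. The difference was 0.32 (SE 0.06, interval 0.20 to 0.45, limma adjusted p = 0.0197), or 1.25-fold. Hoxb3, active in the posterior hindbrain and pharyngeal arches, had 11.07, 11.22 and 11.12 in DKO 1 to 3, against 10.76, 10.87 and 10.85 in control 1 to 3, again with no overlap. Its difference was 0.31 (SE 0.06, interval 0.18 to 0.44, limma adjusted p = 0.0309), or 1.24-fold. In the RefSeq table the extent of Hoxb3 overlaps that of Hoxb4, and that of Hoxa3 overlaps Hoxa4, Hoxa5 and Hoxa6. Which of these transcripts each probe reads was not determined here, so the probes of overlapping genes may not be separate measurements.

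**Figure D2:**
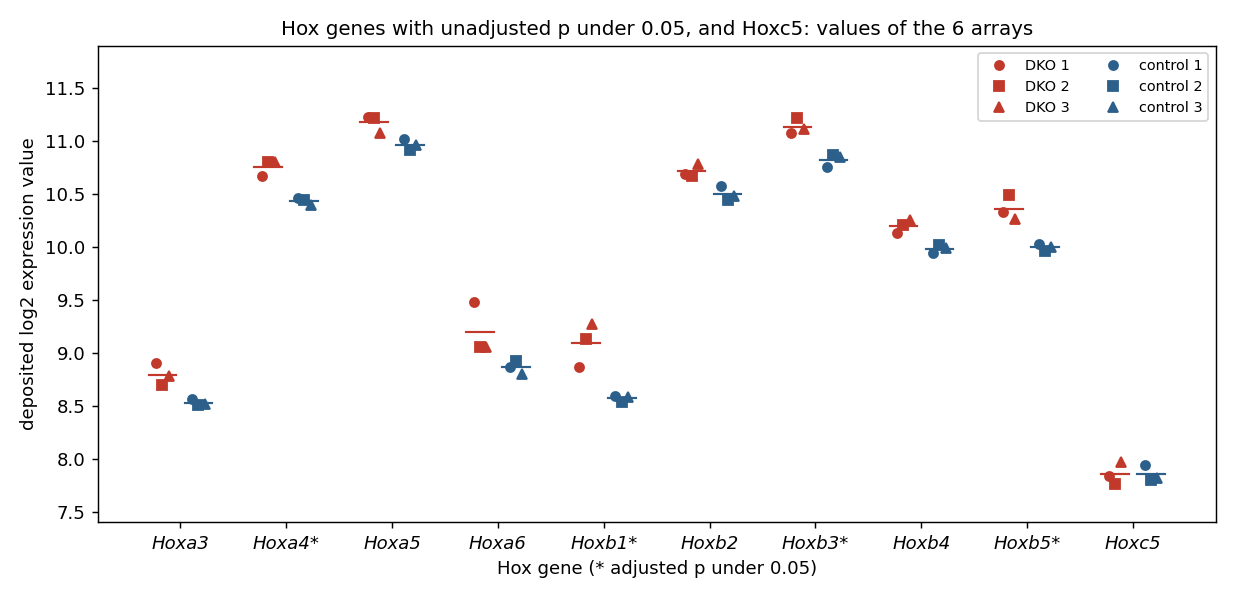
Deposited log2 values (vertical axis) of the 9 Hox genes with an unadjusted p under 0.05 and of Hoxc5 (horizontal axis), 3 DKO arrays in red left of 3 control arrays in blue, with a bar at each group mean and an asterisk on genes past the threshold. For all 9 genes every DKO point lies above every control point, whereas the Hoxc5 points of the groups are mixed.

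The other 5 genes of the run were higher in every DKO array without passing the threshold. Hoxa3, needed for thymus and parathyroid, had 8.91, 8.69 and 8.78 in DKO 1 to 3, against 8.56, 8.50 and 8.52 in control 1 to 3, a difference of 0.27 (SE 0.06, limma adjusted p = 0.0724). Hoxa6 had 9.48, 9.06 and 9.06 in DKO 1 to 3, against 8.87, 8.92 and 8.80 in control 1 to 3. DKO 1 alone was high for Hoxa6, whose difference of 0.33 (SE 0.11, limma adjusted p = 0.192) had a DKO SD of 0.24. Hoxb2, a hindbrain gene, had 10.69, 10.68 and 10.79 in DKO 1 to 3, against 10.58, 10.44 and 10.48 in control 1 to 3, with a difference of 0.22 (SE 0.06, limma adjusted p = 0.112). Hoxb4, known for patterning neck vertebrae and for blood progenitors, had 10.13, 10.21 and 10.25 in DKO 1 to 3, against 9.95, 10.02 and 9.99 in control 1 to 3. Its difference of 0.21 (SE 0.05, limma adjusted p = 0.0937) was close to that of its neighbour Hoxb2.

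The paralogues of group 5 are the Hox genes best known in lung development. Hoxa5 had 11.23, 11.22 and 11.08 in DKO 1 to 3, against 11.02, 10.92 and 10.96 in control 1 to 3. Its DKO values were all above the controls, at a difference of 0.21 (SE 0.06, interval 0.08 to 0.35, limma adjusted p = 0.135). Hoxc5 had 7.84, 7.76 and 7.97 in DKO 1 to 3, against 7.94, 7.80 and 7.82 in control 1 to 3, and the groups overlapped. Its difference was 0.0035 (SE 0.07, interval -0.15 to 0.16, limma adjusted p = 0.993). Hoxb5 was thus the 1 member of the group of 3 past the threshold, and the differences between the paralogues were not tested.

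By cluster, 1 of 10 HoxA genes and 3 of 9 HoxB genes rose, beside 1.03% of all genes with a rise. In HoxC 0 of 9 and in HoxD 0 of 9 genes passed in either direction, beside 2.41% of all genes. At an unadjusted limma p under 0.05 there were also 0 of each, beside 12.8% of all genes. All HoxC and HoxD probes were among the dimmer 50% of genes. The median difference was 0.04 in HoxA, 0.21 in HoxB, -0.04 in HoxC and 0.03 in HoxD. By position, 3 of 11 anterior genes (paralogues 1 to 4), 1 of 10 central genes (5 to 8) and 0 of 16 posterior genes (9 to 13) passed, with medians of 0.21, 0.0098 and 0.0059. At 2.41% over all genes, a count of 0 in sets of this size does not set HoxC, HoxD or the posterior genes apart. The anterior count combines unlike clusters: all 4 anterior HoxB genes had differences of 0.21 or more, the 3 anterior HoxD genes lay between 0.03 and 0.05, and Hoxc4, the 1 anterior HoxC gene, lay at -0.19. The differences between clusters were not tested.

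In HoxA and HoxB, the genes on either side of the run lay near 0. Hoxa2, which gives the second pharyngeal arch its identity, had 9.54, 9.42 and 9.41 in DKO 1 to 3, against 9.42, 9.40 and 9.43 in control 1 to 3, a difference of 0.04 (SE 0.05). Hoxa7 lay at 0.01 (SE 0.07) and Hoxb6 at 0.06 (SE 0.07). Farther from the run, Hoxb7 had 7.25, 7.25 and 7.21 in DKO 1 to 3, against 7.29, 7.46 and 7.26 in control 1 to 3. Its values did not overlap, but the gap was small beside the spread of the controls, and its difference was -0.09 (SE 0.06, limma adjusted p = 0.634).

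The remaining HoxA and HoxB genes are posterior. Hoxa9 (0.03), Hoxa10 (0.02), known from the uterus, and Hoxa11 (-0.0047), which shapes the forearm and kidney, lay near 0, and Hoxa13, a gene of digits and hindgut, lay at -0.13 (SE 0.08, limma adjusted p = 0.589). Hoxb9 lay at 0.05 and Hoxb13, a gene of the tail end and prostate, at -0.03.

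The largest negative difference of the family was that of Hoxc4, at -0.19 (SE 0.09, interval -0.40 to 0.02, limma adjusted p = 0.445). Its values were 7.96, 7.70 and 8.04 in DKO 1 to 3, against 8.21, 8.07 and 8.002 in control 1 to 3, so the groups overlapped. The other HoxC genes were Hoxc6 (-0.04), Hoxc8 (-0.09), which patterns the thoracic skeleton, Hoxc9 (-0.06), Hoxc10 (-0.08), Hoxc11 (0.09), Hoxc12 (0.02) and Hoxc13 (0.04), a hair follicle gene. In HoxD, Hoxd1 (0.03), Hoxd3 (0.03), Hoxd4 (0.05) and Hoxd8 (0.0097) lay just above 0. Hoxd9 (0.09) and Hoxd12 (0.08) were above 0, and Hoxd10 (-0.06), Hoxd11 (-0.11) and Hoxd13 (-0.02), genes of the limb and urogenital tract, were below it. Across the 28 genes with an unadjusted p of at least 0.05, differences ran from -0.19 to 0.09 with SEs of 0.05 to 0.10 and limma adjusted p of 0.445 to 0.993.

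The probes of 26 of the 37 genes were in the dimmer 50% of all genes by mean over the 6 arrays, among them all 9 HoxC genes, all 9 HoxD genes, 5 of 10 HoxA genes and 3 of 9 HoxB genes. On dim probes the signal can lie near background, and the deposited values carry no detection call. A gene there that missed the threshold is therefore not shown to be equal in both groups. The dim members also moved with 1 array: DKO 2 held the highest DKO value for all 16 posterior genes and for 23 of the 37 Hox genes, and its median deviation from the DKO mean over the 37 genes was 0.08, against -0.04 in DKO 1 and -0.04 in DKO 3. Over all genes DKO 2 was the highest DKO array for 50.5%. The controls were uneven too: control 1 held the highest control value for 22 of the 37 Hox genes and 10 of the 16 posterior genes. Control 3 did so for 2 and 1. Over all genes these shares were 33.1% for control 1 and 28.3% for control 3. Without DKO 2 the median difference of the Hox genes was -0.03.

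**Figure D3:**
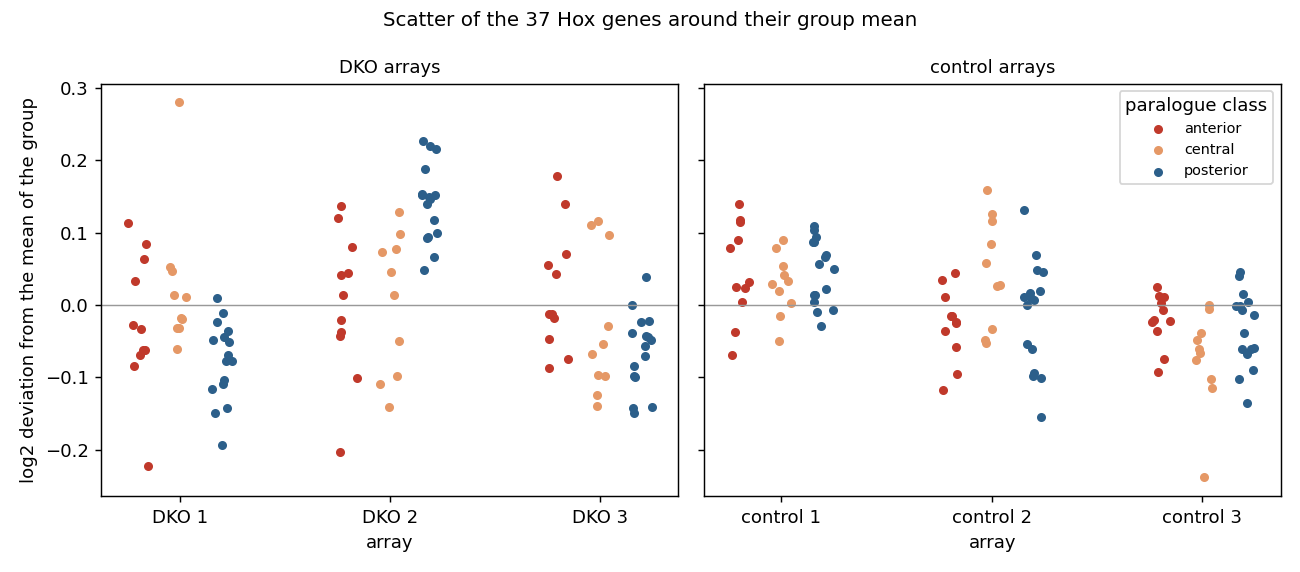
Deviation of each of the 37 Hox genes from its group mean on the log2 scale (vertical axis) in each array (horizontal axis), DKO arrays left and control arrays right, coloured by paralogue class. All 16 posterior genes lie above 0 in DKO 2, whereas the anterior genes in that array lie on both sides of 0.

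The 4 calls depended on single arrays while the differences kept their direction. For all 9 genes of the run the difference was above 0 under each of the 17 alternative settings, with lowest values of 0.13 (Hoxa5) to 0.43 (Hoxb1). The groups of these 9 genes do not overlap, so leaving out or weighting arrays could not reverse the sign. Several other settings change the test and not the difference. The number of Hox genes past the threshold was 3 without DKO 1 (1.84% of all genes passed there), 5 without DKO 2 (4.07%) and 1 without DKO 3 (1.59%). It was 0 without control 1 (1.08%), 0 without control 2 (0.988%) and 0 without control 3 (1.08%), where 9, 9 and 10 Hox genes still had an unadjusted limma p under 0.05. Without a control array the limma adjusted p was 0.0836 to 0.110 for Hoxa4, 0.0931 to 0.112 for Hoxb1, 0.0938 to 0.154 for Hoxb3 and 0.0950 to 0.127 for Hoxb5. Without DKO 3 it was 0.0764 for Hoxa4, 0.0577 for Hoxb1 and 0.0845 for Hoxb3, and without DKO 1 it was 0.0516 for Hoxb5. Hoxa3 was the fifth gene past the threshold without DKO 2 (0.32, limma adjusted p = 0.0167).

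**Figure D4:**
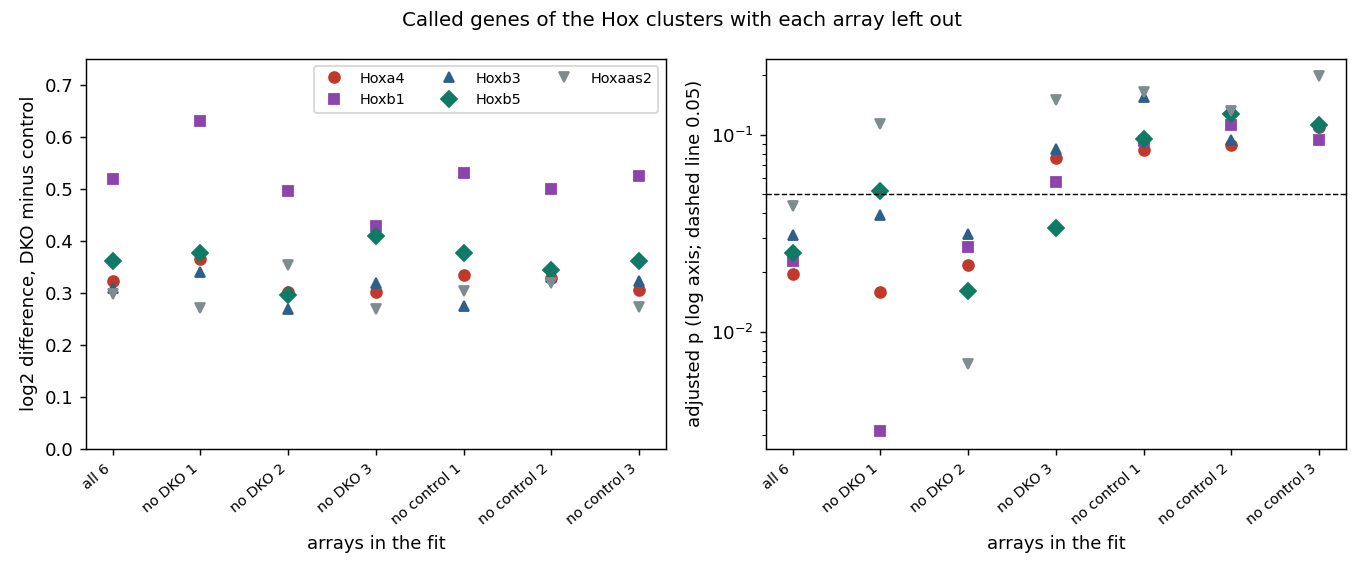
Log2 difference (left) and limma adjusted p on a log axis (right) of Hoxa4, Hoxb1, Hoxb3, Hoxb5 and the non-coding gene Hoxaas2 with all 6 arrays and with each array left out (horizontal axis). The differences stay between 0.27 and 0.63, and all 5 genes lie above the dashed line of 0.05 whenever a control array is left out.

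The non-coding genes of the clusters were set beside their neighbours. Of the 10 measured in the list of such genes, Hoxaas2, an antisense transcript that overlaps Hoxa3 in the RefSeq table, rose and 0 fell. Over all genes 1.03% rose and 1.38% fell. Hoxaas2 had 9.21, 9.05 and 9.21 in DKO 1 to 3, against 8.87, 8.90 and 8.81 in control 1 to 3. All DKO values were higher, at a difference of 0.30 (SE 0.06, limma adjusted p = 0.0433), which resembles the 0.27 of Hoxa3. The call was lost when any single array other than DKO 2 was left out (limma adjusted p of 0.113 to 0.198). The long non-coding Hottip at the posterior end of HoxA (-0.05), Haglr of HoxD (0.08) and Hoxd3os1 (0.0090) did not pass. A further measured non-coding gene, 5730596B20Rik, was not in the list and was found in the RefSeq gene order afterwards. It lies between Hoxa3 and Hoxa4, overlaps Hoxa3 and had a difference of 0.08, smaller than those of the coding genes around it.

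The clusters also hold the miR-10 and miR-196 genes, which are known to target Hox transcripts. Their mature sequences from RefSeq (GRCm38.p6) are shown because the families sit inside the clusters and share a seed each, with the seed (bases 2 to 8 from the 5′ end) in capitals.
mmu-miR-10a-5p: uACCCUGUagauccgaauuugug
mmu-miR-10b-5p: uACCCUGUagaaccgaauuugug
mmu-miR-196a-5p: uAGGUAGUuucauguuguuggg
mmu-miR-196b-5p: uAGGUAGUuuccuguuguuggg

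Each pair differs at 1 base outside the seed, U12A between miR-10a and miR-10b and A12C between miR-196a and miR-196b, counted from 1 at the 5′ end, with the base of the first-named miRNA first. The Mir10a gene lies within the extent of Hoxb3, inside the run of higher values. Its probe read 5.80, 5.48 and 5.31 in DKO 1 to 3, against 5.47, 5.52 and 5.53 in control 1 to 3, so the groups overlapped (difference 0.02, SE 0.11, limma adjusted p = 0.965). Mir10b in HoxD lay at 0.03, Mir196a-1 in HoxB at -0.04, Mir196a-2 in HoxC at -0.04, Mir615 in HoxC at 0.03 and Mir196b in HoxA, between Hoxa9 and Hoxa10, at 0.19 (SE 0.10, limma adjusted p = 0.503). Labelling started from an oligo(dT) primer, so these probes are not a measure of mature miRNA.

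The genes of proteins that act with or on Hox genes showed few differences, beside the 2.41% of all genes that passed. In lists this short, 0 calls is close to that share. At an unadjusted limma p under 0.05 the share over all genes was 12.8%. Of 8 TALE cofactors, homeodomain proteins of the Meis, Pbx and Pknox families that bind DNA with Hox proteins, limma called 0, and 0 had an unadjusted p under 0.05. The largest differences were 0.09 for Pknox2 and 0.09 for Meis2, and the median was 0.06. Of 29 Polycomb genes limma called 0 (1 at an unadjusted p under 0.05), with a median of -0.03 and the largest differences at -0.14 for Scmh1 and -0.12 for Rybp. Of 19 trithorax genes and H3K27 demethylases limma called 0 (2 at an unadjusted p under 0.05), with a median of -0.0024, Wdr5 at -0.13 and Kat6b at 0.12.

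Of 22 genes upstream of Hox expression, mostly of the retinoic acid pathway, 1 fell and 0 rose, with a median of -0.05. Aldh1a1, an enzyme that makes retinoic acid, had 6.56, 6.48 and 6.68 in DKO 1 to 3, against 7.27, 7.52 and 7.25 in control 1 to 3. The difference of -0.78 (SE 0.08, limma adjusted p = 0.00211) was 1.71-fold, and it passed whichever array was left out, although its probe was among the dimmest 30% of genes. At an unadjusted p under 0.05 there were 6 of the 22, and 5 of these were lower in DKO. Beside Aldh1a1, the lower ones were the retinol transporter Stra6 (-0.30, limma adjusted p = 0.0615), the binding protein Crabp1 (-0.22) and the receptors Rarb (-0.20) and Rarg (-0.19), and the higher one was the binding protein Crabp2 (0.19). None of these other 5 passed over all genes. Of 17 genes flanking the clusters limma called 0 (2 at an unadjusted p under 0.05), near the shares of 2.41% and 12.8% over all genes. Skap2, beside HoxA, lay at 0.16 and Evx2, beside HoxD, at -0.15.

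**Figure D5:**
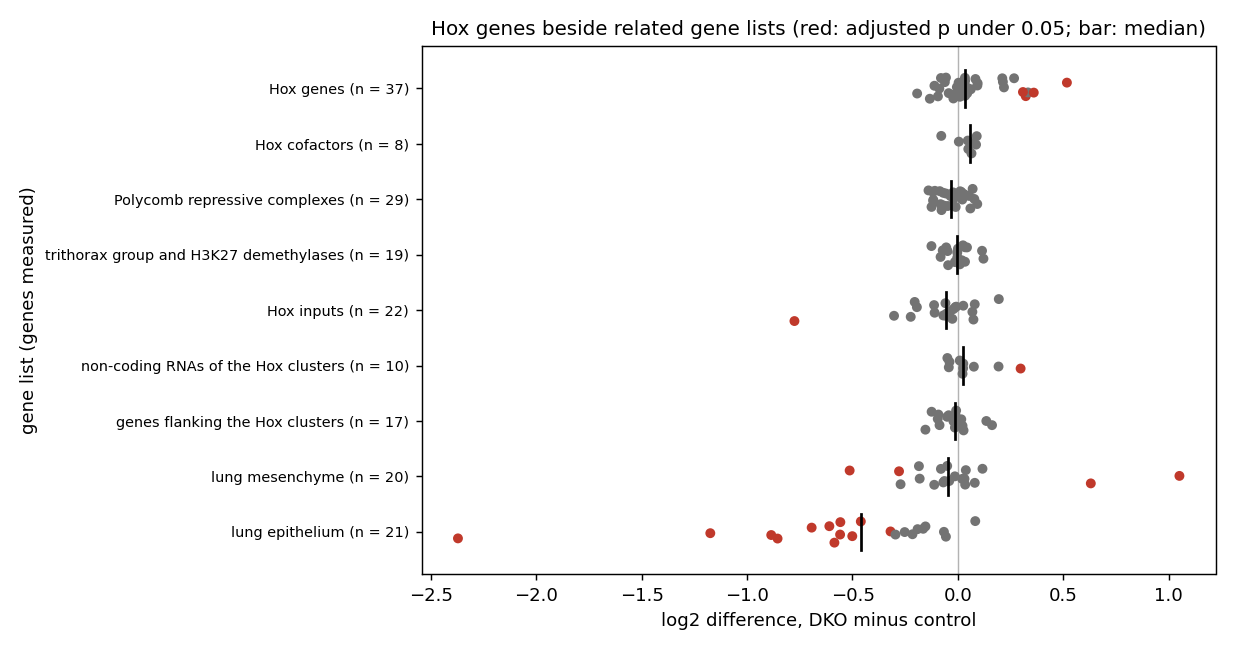
Log2 difference (DKO minus control, horizontal axis) of each measured gene in the Hox family and 8 related lists (vertical axis), with red points past the threshold and a black bar at each median. The 4 red Hox points lie between 0.31 and 0.52, while the cofactor, Polycomb, trithorax and flanking lists hold no red point.

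Markers of the cell types in the bud moved in the same arrays. The counts of each list stand beside 2.41% of all genes called, 1.03% with a rise and 1.38% with a fall. At an unadjusted limma p under 0.05 the share over all genes was 12.8%. In lists this short, 0 calls is close to the share of 2.41%. Of 21 lung epithelium markers 12 fell and 0 rose (median -0.46), beside 1.38% of all genes with a fall. The largest falls were those of Sftpc (-2.37), Sox2 (-1.17), Rab25 (-0.89) and Krt18 (-0.86). Other epithelial markers were not called, among them Nkx2-1 (-0.19), Sox9 (-0.15), Cldn7 (-0.07), St14 (-0.06) and Krt19 (0.08), the 1 marker above 0. The summed linear signal of this list was 13033 to 14714 in DKO arrays and 18959 to 20346 in control arrays. Such sums weigh bright genes most. In the mesenchyme list, Vim (log2 mean 13.23 in control) counts far more than Fgf10 (9.10). Of 9 smooth muscle genes 6 fell, led by Actg2 (-0.70), Cnn1 (-0.63), Myh11 (-0.60) and Acta2 (-0.44), and 1 rose, with a summed signal of 6972 to 8106 in DKO and 9391 to 10322 in control. Of 20 lung mesenchyme genes, where Hox genes are known to be active, Fgf10 and Meox2 rose and Foxf2 and Twist2 fell, the median was -0.05 and the summed signal was 43380 to 43937 in DKO and 43502 to 44468 in control, so these ranges overlap. In mesothelium 3 of 10 genes rose, Calb2 (1.28), Upk1b (0.47) and Gpm6a (0.42), with a summed signal of 6853 to 7190 in DKO and 6256 to 6586 in control. In cardiac muscle 1 of 12 rose, Myl7 (0.80), with 4682 to 5540 in DKO and 3974 to 4276 in control. In stomach, intestine and liver 1 of 11 rose, Alb (0.96), with 2851 to 3290 in DKO and 2558 to 2792 in control. Limma called 0 of 12 endothelial, 0 of 9 erythroid and 0 of 10 leukocyte genes, with 2, 2 and 5 at an unadjusted p under 0.05, but the summed signals of the groups did not overlap for any of these 3 lists. Endothelium summed to 11130 to 12499 in DKO and 10659 to 10917 in control (median 0.11), with Tek at 0.20 and Cdh5 at 0.20. Erythroid genes summed to 33542 to 34079 in DKO and 30523 to 33323 in control (median 0.07), with Gata1 at 0.27 and Hbb-bh1 at 0.26. Leukocyte genes summed to 2709 to 2876 in DKO and 3009 to 3109 in control (median -0.13), with Tyrobp at -0.30 and Spi1 at -0.26. The part of these shifts in the Hox differences was not tested.

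For the lists of spinal cord and hindbrain, neural crest and neurons, and somite, body wall and limb, the summed signals of the groups overlapped. Several of these genes lay below the array medians, such as Pax6 (control mean 6.62) and Tbx15 (5.70), and others above, such as Isl1 (9.13). With dim probes in the sums, overlap does not show equal amounts of these tissues. The shares over all genes were 2.41% called and 12.8% at an unadjusted limma p under 0.05. Of 12 genes of spinal cord and hindbrain, where Hoxb1 and Hoxb2 are strongly active, limma called 0 (1 at an unadjusted p under 0.05), the median was -0.03, Nkx6-1 lay at -0.20 and Neurog1 at 0.12, and the summed signal was 2415 to 2608 in DKO and 2537 to 2633 in control. Of 9 neural crest and neuron genes limma called 0 (3 at an unadjusted p under 0.05), with 3327 to 3789 in DKO and 3653 to 3877 in control, Ret at -0.28 and Stmn2 at 0.21. Of 12 genes of somite, body wall and limb, the tendon gene Scx fell (-0.35) and 0 rose, with 2857 to 3002 in DKO and 2818 to 3106 in control. No cell type marker had a value below 5.61 in any array, so none was at 0.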

How the data were processed

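Gene expression was measured on Affymetrix MoGene 1.1 ST arrays from 6 samples, per the labels. The deposited table gives 1 log2 value for each of 35556 probes and array. RMA, oligo and limma are listed, without versions, per the submitters' processing notes. The log base is not stated, and base 2 was taken from RMA and the range of 3.42 to 14.27. Array medians were 7.87 to 7.89, so a change common to all genes cannot be seen, and the number of arrays limits the precision.

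The platform annotation gives 1 gene for 21789 probes, several for 1621, and 12146 probes were unnamed here. Symbols were matched through Entrez identifiers to RefSeq (GRCm38.p6) for 19856 of 19938 genes, and the brightest probe of each gene was used. No probe coordinates are given, because no build is given in the sources used here.

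Each gene was fitted by lmFit and eBayes (limma 3.58.1, R 4.3.3) with group as the only term, p-values were two-sided, and the procedure was checked on simulated data. Samples were grouped by title. The Hox genes and all lists were chosen with earlier results of these data known. Every Hox gene is named, with values in every sample for those at an unadjusted p under 0.05 and for paralogue group 5. Values of Hoxa2, Hoxb7, Hoxc4 and Mir10a in every sample were added after they were seen. Of the lists, up to 4 called genes or, where none passed, the 2 with the largest differences were named. A further 5 retinoic acid genes, 5730596B20Rik, further non-coding genes and the uncalled epithelial markers were named after their values were seen. Alternatives were each array left out, the replicate block, other eBayes settings, array weights, 2 further normalizations, filters on the dimmest 30% and 50%, means over probes, all probes tested, and ordinary least squares.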

Additional observations from a re-analysis of the deposited data

How the results depend on the processing

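The 9 genes of Hoxa3 to Hoxa6 and Hoxb1 to Hoxb5 kept their direction under all 17 alternatives. Most of these could not reverse it, because the groups do not overlap or because the setting changes only the test. Hoxa4, Hoxb1 and Hoxb3 passed the threshold in 11 of the 17 and Hoxb5 in 10. The count of 4 Hox genes became 8 with an intensity trend in eBayes, 8 with array weights (among them Hoxa13, a posterior gene at -0.13 with equal weights), 7 without the dimmest 50% of genes, 0 with ordinary least squares (8 at an unadjusted p under 0.05), 0 when all probes were tested together (9 at an unadjusted p under 0.05) and 0 to 5 with single arrays left out. The count of 481 genes in all became 725, 2003, 16 and 208 under the trend, the array weights, ordinary least squares and all probes, and 197 to 811 with single arrays left out. The median of the Hox genes was 0.27 without the dimmest 50% of genes, where 11 Hox genes were left, against 0.03 over all 37, and it was -0.0072 with array weights and -0.03 without DKO 2. The count of Hox genes with separate groups was 10 with all arrays and 10 to 16 with single arrays left out, where fewer values make separation easier. Deviations of same-numbered arrays correlated at -0.06, 0.05 and 0.16, so the numbers were not taken as pairs, and not every array correlated best with the one of its own number. With the replicate number as a block, 3 Hox genes and 406 genes in all passed, and the limma adjusted p was 0.0516 for Hoxb5 and 0.0895 for Hoxaas2. Dim probes and 3 arrays a group limit what could be detected, and the causes of these shifts were not tested.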
